A study of Rattus norvegicus with 6 samples.

Results

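The genes described here are 10 genes of the skeletal muscle sarcomere and its calcium release, energy and stress-response machinery, namely Acta1, Tnnt3, Myh4, Myom1, Nrap, Casq1, Cacna1s, Ckm, Ankrd1 and Ankrd23. They were taken by exact symbol from the deposited table, in which each symbol matched 1 row, and they make up 10 of its 22050 genes and 10 of the 14426 genes that had enough counts to be tested. The set was chosen by its measured values in the same 6 libraries, so the levels, ratios and group differences of the 10 genes are given as a description and carry no test. RNA of tissue labelled spinal cord was sequenced as 3 libraries from rats with spared nerve injury and 3 libraries from rats that had sham surgery. The injured group is called SNI-NP after the neuropathic pain the injury causes. Spared nerve injury cuts branches of the sciatic nerve while leaving 1 branch intact, and sham surgery served as the control. The rats were healthy male Sprague–Dawley animals, and the labels of the 6 libraries name no genetic change, vector or drug. The interval between surgery and tissue collection is not stated in the labels, and nothing there says whether each library came from 1 animal. Libraries are named by group and replicate number, which only names a library.

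Skeletal muscle fibres contract through sarcomeres, repeating units in which thick filaments of myosin pull on thin filaments of actin. The filaments are anchored at the M-band and the Z-disc, contraction is started by calcium that is released from the sarcoplasmic reticulum when the membrane is depolarised, and creatine kinase buffers the energy supply. These genes are transcribed at very high levels in muscle fibres, and healthy spinal cord tissue contains no such fibres, although striated muscle lies around the vertebral column from which the cord is dissected.

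Promoter sequences of 4 of the genes are shown because Acta1, Myh4 and Ckm had some of the widest ranges between libraries and followed 1 common order, whereas Casq1 had the narrowest range of the 10 genes. They are RefSeq sequences of the rat assembly GRCr8, which is not the Rat6 build to which the reads were mapped, and each runs 5′ to 3′ on the gene's strand from 250 bases before the annotated start to 50 bases after it. The windows are chr19:68784145-68784444 on the minus strand for Acta1, chr10:52421898-52422197 on the plus strand for Myh4, chr1:88189211-88189510 on the plus strand for Ckm and chr13:87212661-87212960 on the minus strand for Casq1. Capitals mark matches, searched on both strands, to the serum response factor motif known as the CArG box, to the MEF2 site, to TATAAA and to CAGCTG, an E-box of the kind bound by myogenic factors such as MyoD. In Myh4 the MEF2 site and 1 of the matches to TATAAA overlap.
Acta1: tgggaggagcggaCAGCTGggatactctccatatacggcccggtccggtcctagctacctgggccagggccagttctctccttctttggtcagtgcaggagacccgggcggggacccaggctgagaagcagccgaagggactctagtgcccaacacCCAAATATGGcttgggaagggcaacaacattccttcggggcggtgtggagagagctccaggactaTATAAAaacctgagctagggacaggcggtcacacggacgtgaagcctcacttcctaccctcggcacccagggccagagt
Myh4: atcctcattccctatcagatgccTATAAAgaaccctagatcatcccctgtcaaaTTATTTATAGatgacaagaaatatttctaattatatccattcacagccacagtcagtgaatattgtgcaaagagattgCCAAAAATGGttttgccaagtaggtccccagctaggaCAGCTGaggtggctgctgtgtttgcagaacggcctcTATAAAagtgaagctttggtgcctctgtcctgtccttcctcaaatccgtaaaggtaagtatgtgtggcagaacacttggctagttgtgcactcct
Ckm: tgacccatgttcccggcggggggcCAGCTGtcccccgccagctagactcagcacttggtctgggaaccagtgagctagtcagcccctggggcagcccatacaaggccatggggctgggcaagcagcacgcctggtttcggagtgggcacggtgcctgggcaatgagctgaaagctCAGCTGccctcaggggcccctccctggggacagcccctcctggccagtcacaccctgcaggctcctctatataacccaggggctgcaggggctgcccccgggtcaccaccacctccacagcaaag
Casq1: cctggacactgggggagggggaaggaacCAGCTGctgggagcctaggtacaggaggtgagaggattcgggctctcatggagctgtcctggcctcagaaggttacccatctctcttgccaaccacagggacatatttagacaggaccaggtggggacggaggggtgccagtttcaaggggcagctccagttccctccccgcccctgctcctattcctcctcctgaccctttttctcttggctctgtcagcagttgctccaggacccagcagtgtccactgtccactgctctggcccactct

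Promoters of 7 of the 10 genes were in the RefSeq table used here. Of these 7, a CArG box stood in 2, Acta1 and Myh4, against 1.64% of 33469 promoters of the same length. CAGCTG stood in 5, namely Acta1, Myh4, Casq1, Cacna1s and Ckm, against 15.1% of all promoters. TATAAA stood in 3, namely Acta1, Myh4 and Cacna1s, against 14.2%, and the MEF2 site in 1, Myh4, against 1.87%. Of 72 promoters of skeletal muscle genes outside the 10, CAGCTG stood in 31, the MEF2 site in 17, TATAAA in 17 and a CArG box in 4. The Acta1 window held its CArG box at position -94 and TATAAA at position -29 from the start, whereas the Casq1 window held a single match, CAGCTG at position -222. Such a match says only that these letters are present in the window.

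The 6 libraries held between 16670760 and 18151156 counts, a largest-to-smallest ratio of 1.09, so depth was nearly equal. Levels are given as CPM, the counts of a gene in every 1000000 counts of the library, after scaling by the trimmed mean of M values (TMM). In a library without any count for a gene, a limit of 3 counts corresponds to between 0.167 and 0.18 CPM. The tissue label was compared with marker genes. The 7 sensory ganglion neuron markers, led by Avil, Scn10a and Calca, summed to between 482 and 1070 CPM in the sham libraries and to 102, 1400 and 1020 CPM in SNI-NP 1, 2 and 3. Spinal markers were also present, with the 6 listed spinal neuron genes between 564 and 1150 CPM. Stmn2 was the largest of these in every library, at 254 to 831 CPM. Like the ganglion sum, Stmn2 was lowest in SNI-NP 1 and highest in SNI-NP 2, so the sum does not separate spinal from ganglion neurons. The inhibitory neuron gene Slc32a1 lay between 19.4 and 61.1 CPM and the astrocyte gene Gfap between 332 and 863 CPM. The labelled tissue therefore came with RNA of sensory ganglion genes in both groups. In bulk tissue, a different number of cells of a type and a different amount of RNA per cell cannot be told apart.

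The 10 genes together held 17.8, 74.8 and 34.3 CPM in sham 1, 2 and 3 and 171, 17.9 and 428 CPM in SNI-NP 1, 2 and 3. The library with the highest sum, SNI-NP 3, thus held 24.1 times the sum of the lowest, sham 1, and SNI-NP 2 was at the level of sham 1. Expressed as a share of all counts, the 10 genes ranged from 0.00178% in sham 1 to 0.0424% in SNI-NP 3, so they were minor transcripts everywhere. Without Acta1, the remaining 9 genes still differed 20.3-fold between the highest and the lowest library.

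Acta1, which encodes the skeletal muscle alpha-actin of the thin filament, had 90, 616 and 221 counts in sham 1, 2 and 3 and 1015, 97 and 3059 counts in SNI-NP 1, 2 and 3. After scaling these were 5.40, 34.7 and 12.9 CPM in the sham libraries and 58.4, 5.39 and 177 CPM in the SNI-NP libraries. SNI-NP 3 was highest and SNI-NP 1 second, and SNI-NP 2 was level with sham 1 at the bottom, so the groups overlapped. Tnnt3, the fast skeletal isoform of troponin T, which holds the troponin complex on tropomyosin, had 1.20, 6.42 and 2.85 CPM in the sham libraries and 18.1, 1.11 and 37.7 CPM in the SNI-NP libraries. It followed the order of Acta1 library by library, with SNI-NP 3 first and SNI-NP 2 last.

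Myh4, the myosin heavy chain of the fastest fibres (type 2B), had 45, 203 and 82 counts in the sham libraries and 743, 36 and 1870 counts in the SNI-NP libraries. These corresponded to 2.70, 11.4 and 4.77 CPM in sham 1, 2 and 3 and to 42.7, 2.0 and 108 CPM in SNI-NP 1, 2 and 3. Its highest library was 54.2 times its lowest, the widest range of the 10 genes, and the lowest was again an SNI-NP library. Its close paralogs Myh1 and Myh2 were not analysed here, so a sharing of reads among these myosin genes is uncertain. Myom1, myomesin, which crosslinks thick filaments at the M-band, had 0.840, 0.620 and 0.873 CPM in the sham libraries and 1.90, 0.833 and 2.14 CPM in the SNI-NP libraries, from 11 to 37 counts each. SNI-NP 1 and SNI-NP 3 stood above the 4 remaining libraries, which lay close together.

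Nrap, a nebulin-related protein involved in assembling actin filaments and linking them to the membrane, had 0.720, 1.01 and 0.640 CPM in the sham libraries and 3.16, 0.666 and 7.94 CPM in the SNI-NP libraries. SNI-NP 2 lay within the sham values. Casq1, calsequestrin, which buffers calcium inside the sarcoplasmic reticulum of fast fibres, had 3.78, 4.73 and 3.78 CPM in the sham libraries and 11.0, 4.17 and 12.9 CPM in the SNI-NP libraries. Its highest library was 3.40 times its lowest, and SNI-NP 2 again lay among the sham libraries. Cacna1s, the voltage sensor that couples depolarisation to calcium release, had 0.780, 1.01 and 0.698 CPM in the sham libraries and 3.16, 0.611 and 4.81 CPM in the SNI-NP libraries. For these 3 genes the sham libraries lay close together, and only SNI-NP 1 and SNI-NP 3 stood away from them.

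Ckm, the muscle creatine kinase, had 28, 238 and 124 counts in the sham libraries and 504, 24 and 1222 counts in the SNI-NP libraries. The levels were 1.68, 13.4 and 7.22 CPM in sham 1, 2 and 3 and 29.0, 1.33 and 70.8 CPM in SNI-NP 1, 2 and 3. Ckm shared with Acta1, Myh4 and Tnnt3 the full order SNI-NP 3, SNI-NP 1, sham 2, sham 3, sham 1 and SNI-NP 2. The controls sham 1 and sham 2 lay far apart in these 4 genes and close together in Casq1, Cacna1s, Nrap or Myom1.

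Ankrd23, a member of the muscle ankyrin repeat family that binds titin and responds to stretch, had 0.180, 0.732 and 0.407 CPM in the sham libraries and 3.05, 0.444 and 4.12 CPM in the SNI-NP libraries. It followed the SNI-NP order of the sarcomere genes from only 3 to 71 counts a library. Ankrd1, its relative, which is found in heart and in denervated or injured muscle and also in other injured cells, had 0.480, 0.732 and 0.233 CPM in the sham libraries and 0.863, 1.33 and 2.26 CPM in the SNI-NP libraries, from 4 to 39 counts. In Ankrd1, SNI-NP 2 ranked above SNI-NP 1, and all SNI-NP libraries lay above all sham libraries. The groups did not overlap in 1 of the 10 genes, Ankrd1, and in 10.3% of all genes tested, and in Ankrd1 the nearest libraries of the groups were 15 counts in SNI-NP 1 and 13 in sham 2.

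**Figure D1:**
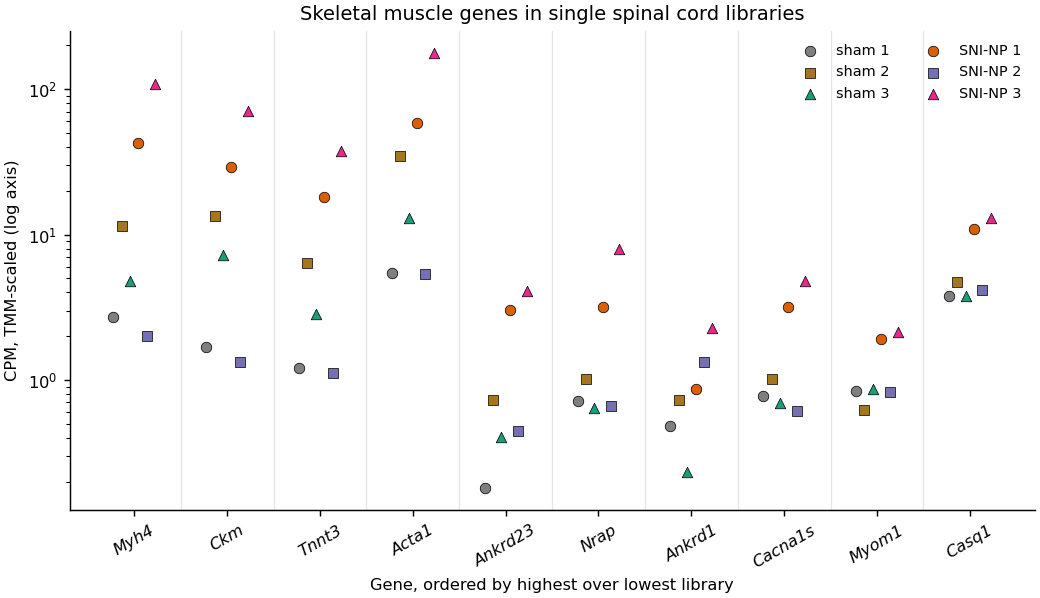
TMM-scaled CPM (log axis) of each of the 10 genes in the 3 sham and 3 SNI-NP libraries, 1 point per library, with genes ordered by the ratio of their highest to their lowest library. SNI-NP 3 is the top point of all 10 genes and SNI-NP 1 the next in 9 of them, while SNI-NP 2 sits among or below the sham points except in Ankrd1.

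Counts over the 10 genes are set beside the same counts over all 14426 genes tested, and nothing is read from the difference because the genes were chosen by these values. SNI-NP 3 was the highest library for all 10 genes, whereas it was highest for 13.0% of all genes. SNI-NP 3 was highest with SNI-NP 1 second in 9 of the 10, Ankrd1 being the exception, against 4.0% of all genes. Both SNI-NP 1 and SNI-NP 3 lay above all sham libraries in all 10 genes (17.1% of all genes), but all SNI-NP libraries did so in 1 of 10 (10.3% of all genes). The highest library was at least 2 times the highest of the other 5 libraries, with 0.5 CPM added to each, in Acta1, Myh4, Tnnt3, Nrap and Ckm, that is 5 of 10 (8 of 10 without SNI-NP 1), against 0.444% of all genes. With 0.5 CPM added, SNI-NP 3 was at least 2 times SNI-NP 2 in 8 of the 10 (1.61% of all genes), all but Myom1 and Ankrd1, and SNI-NP 1 was at least 2 times SNI-NP 2 in the same 8 (5.82% of all genes). Within the controls, sham 2 was at least 2 times sham 1 in 4, namely Acta1, Myh4, Tnnt3 and Ckm, against 2.33% of all genes.

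Ratios between single libraries of 1 group show how far replicates of the same treatment differed. They are given with exact 95% intervals (Clopper–Pearson, from the 2 counts), which cover counting error only. SNI-NP 3 over SNI-NP 2 was 54.2 for Myh4 (39.0 to 77.7), 53.1 for Ckm (35.5 to 83.3), 33.9 for Tnnt3 (21.8 to 55.9) and 32.9 for Acta1 (26.9 to 40.7). The same ratio was 11.9 for Nrap (6.61 to 23.6), 9.26 for Ankrd23 (4.45 to 22.3), 7.88 for Cacna1s (4.18 to 16.4), 3.09 for Casq1 (2.37 to 4.07) and 2.57 for Myom1 (1.38 to 5.05). For Ankrd1 it was 1.70 with an interval of 0.995 to 2.95, so that a difference between these libraries was not detectable at this depth. The filament genes and Ckm thus differed by more than 30-fold between libraries of the same group, and Casq1 and Myom1 by about 3-fold, with intervals that do not meet.

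SNI-NP 1 over SNI-NP 2 was 21.7 for Ckm (14.4 to 34.3), 21.4 for Myh4 (15.3 to 30.8), 16.3 for Tnnt3 (10.4 to 27.1), 10.8 for Acta1 (8.79 to 13.5) and 2.65 for Casq1 (2.02 to 3.51). Ankrd1 went the other way at 0.647, with an interval of 0.316 to 1.29 that includes equality. SNI-NP 3 exceeded SNI-NP 1 by a ratio of 3.04 for Acta1 (2.83 to 3.26), 2.62 for Ankrd1 (1.41 to 5.12), 2.54 for Myh4 (2.33 to 2.77), 2.44 for Ckm (2.20 to 2.72) and 2.08 for Tnnt3 (1.82 to 2.39). The corresponding ratios of Casq1, 1.17 (0.956 to 1.42), Myom1, 1.13 (0.688 to 1.86), and Ankrd23, 1.35 (0.933 to 1.96), had intervals that include equality. SNI-NP 1 and SNI-NP 3 therefore differed in the thin filament, myosin and creatine kinase genes, while no difference between them was detectable in calsequestrin or myomesin.

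Among the controls, sham 2 over sham 1 was 7.98 for Ckm (5.38 to 12.3), 6.42 for Acta1 (5.14 to 8.10), 5.35 for Tnnt3 (3.31 to 9.09) and 4.23 for Myh4 (3.05 to 5.98). It was 1.25 for Casq1 (0.892 to 1.76) and 0.737 for Myom1 (0.303 to 1.75). The sham libraries therefore also differed among themselves in the genes with the widest range. SNI-NP 2 over sham 1 was 0.997 for Acta1 (0.741 to 1.34), 0.793 for Ckm (0.440 to 1.42), 0.740 for Myh4 (0.464 to 1.17) and 2.78 for Ankrd1 (1.21 to 7.15). For the first 3 of these, an injured and a sham library could not be distinguished at this depth, whereas Ankrd1 was higher in SNI-NP 2.

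**Figure D2:**
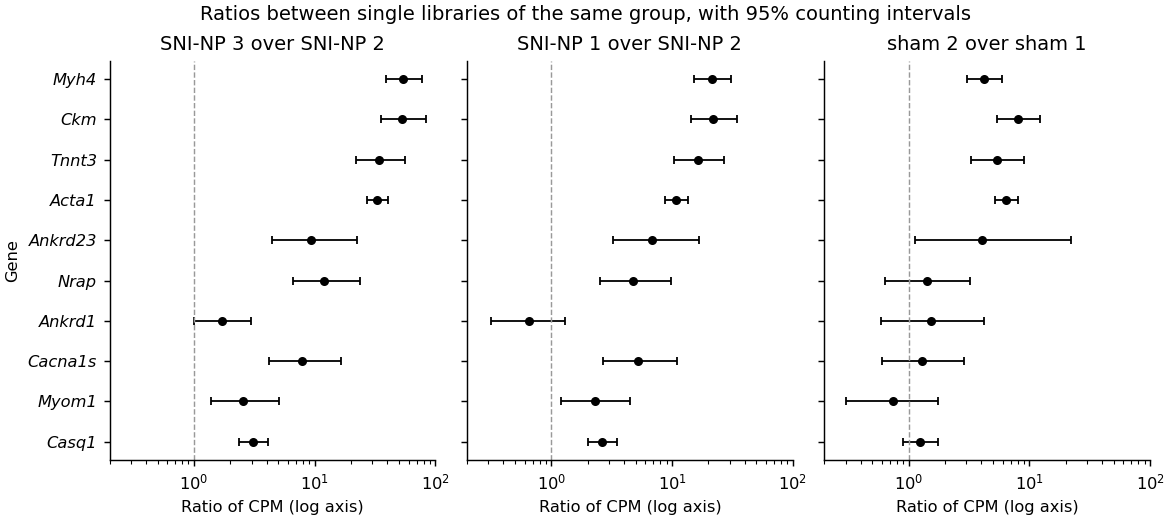
Ratio of CPM (log axis) between 2 libraries of the same group for each of the 10 genes, with exact 95% counting intervals, for SNI-NP 3 over SNI-NP 2, SNI-NP 1 over SNI-NP 2 and sham 2 over sham 1. Myh4, Ckm, Tnnt3 and Acta1 lie far to the right of equality (dashed line) in all 3 panels, and Casq1 and Myom1 lie near it in the sham panel.

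As group means, the 10 genes were higher in SNI-NP than in sham, with folds from 2.09 to 8.10 and a median of 4.54. Myh4 averaged 51.0 ± 53.7 CPM in SNI-NP and 6.30 ± 4.56 CPM in sham (SD, n = 3 each), and Acta1 80.4 ± 88.0 against 17.7 ± 15.2 CPM. Ckm averaged 33.7 ± 35.0 against 7.44 ± 5.87 CPM. In these 3 genes the SD of the SNI-NP group exceeded its mean. Casq1 averaged 9.36 ± 4.59 against 4.10 ± 0.548 CPM, Ankrd23 2.54 ± 1.89 against 0.440 ± 0.278 CPM and Ankrd1 1.49 ± 0.711 against 0.482 ± 0.250 CPM. Without SNI-NP 3 the median fold was 2.27 and the Acta1 fold was 1.81, whereas without SNI-NP 2 they were 6.69 and 6.67. Without SNI-NP 1 the median fold was 5.01. The group difference in these genes thus depended on which libraries entered the mean.

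In edgeR's quasi-likelihood fit over all genes the log2 fold changes were 3.01 for Myh4, 2.5 for Ankrd23, 2.43 for Tnnt3, 2.30 for Nrap, 2.18 for both Acta1 and Ckm, 1.77 for Cacna1s, 1.61 for Ankrd1, 1.19 for Casq1 and 1.06 for Myom1. The median of the 10 was 2.18, and that of all genes tested was 0.006. After Benjamini–Hochberg adjustment no gene of the whole table passed an adjusted p of 0.05 with a fold change above 2 (0 genes, smallest adjusted p = 0.116), against 327 at an unadjusted p and 99 with DESeq2 after adjustment. Without SNI-NP 1, edgeR called 206 genes after adjustment and 804 at an unadjusted p. The labels give 3 samples a group, and the p-values measure the spread between these samples.

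Levels of different genes are compared per length, as deposited FPKM, which divides fragment counts by gene length and library size. Acta1 was highest in every library, with 3.76, 25.13 and 9.0 FPKM in the sham libraries and 38.94, 3.78 and 122.20 FPKM in the SNI-NP libraries. In SNI-NP 3 it was followed by Ckm at 48.75, Tnnt3 at 35.04, Myh4 at 17.97 and Casq1 at 6.91 FPKM, while Myom1 stood at 0.42 FPKM. The mixture of the 10 genes was not constant. Casq1 made up 21.8%, 5.65% and 10.1% of their summed FPKM in sham 1, 2 and 3 and 6.29%, 23.1% and 2.90% in SNI-NP 1, 2 and 3, so its share was highest in the 2 libraries with the lowest sum. Acta1 held between 38.2% and 53.2% in every library. Ckm held 12.4% and 9.40% in sham 1 and SNI-NP 2, and between 20.5% and 24.6% in the other 4 libraries.

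The log2 levels of the 10 genes were compared pairwise across the 6 libraries, as a description, since all pairs share the same libraries and the same scaling. The 36 pairs without Ankrd1 had Pearson correlations from 0.752 to 0.997 with a median of 0.947. The 9 pairs with Ankrd1 ranged from 0.449 to 0.730 with a median of 0.591. Ankrd1 therefore had the pattern least like that of the others.

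The remaining skeletal muscle genes were described from 10 lists holding 94 genes outside the 10, of which 88 were in the table and 59 had enough counts to be tested. Their median log2 fold change was 0.62. SNI-NP 3 was the highest library in 37 of the 59, and the order SNI-NP 3 then SNI-NP 1 was found in 24 (40.7%). Both of these libraries lay above all sham libraries in 32 of 59 (54.2%), and SNI-NP 3 was at least 2 times SNI-NP 2 in 28. All SNI-NP libraries lay above all sham libraries in 6 of 59 (10.2%), close to the 10.3% of all genes. A fold change above 2 with an unadjusted p under 0.05 in edgeR's quasi-likelihood test was met by 5 of the 59 higher in SNI-NP (8.47%, against 0.742% of all genes) and by 0 lower (1.53% of all genes), and after adjustment by 0 (smallest adjusted p = 0.329). The count of 5 depended on single libraries, being 25 without SNI-NP 2, 2 without sham 3 and 1 without SNI-NP 3. Of the 29 untested genes, 3 had 0 counts in every library and 17 of the other 26 were highest in SNI-NP 3, at no more than 3.48 CPM. The symbols Myh1, Myh2, Tcap, Ttn, Atp2a1 and Chrng were not analysed here. Another symbol, AABR07005775.1, carries a description that is a name of Atp2a1, and its counts are given below.

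Among thick filament genes, Mylpf, the fast regulatory light chain, had 1.08, 6.14 and 2.97 CPM in the sham libraries and 21.0, 0.389 and 28.5 CPM in the SNI-NP libraries. Myl1, the fast essential light chain, had 0.600, 6.08 and 2.04 CPM against 14.7, 0.5 and 23.2 CPM. Both followed the order of Myh4 at the top and had SNI-NP 2 at the bottom. Of the 8 thick filament genes tested, 2 passed an unadjusted p under 0.05 with a fold change above 2 in edgeR's quasi-likelihood test. Both were higher in SNI-NP, as were 0.742% of all genes tested by this criterion. They were Mybpc2, a fast myosin-binding protein (log2 fold change 2.11 ± 0.80 SE, edgeR adjusted p = 0.44), and Mylk2, the skeletal myosin light chain kinase (1.37 ± 0.53, edgeR adjusted p = 0.443). Myom2, by contrast, had its lowest values of 42.8 and 43.6 CPM in sham 1 and SNI-NP 3 and lay between 66.7 and 75.6 CPM elsewhere. It was at 75.6 CPM in SNI-NP 2, where Myh4 had 2.0 CPM. Myom2 thus did not follow Myh4, and whether its RNA came from muscle was not tested.

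Of the 14 Z-disc genes tested, 3 passed the same criterion, all higher in SNI-NP, and 0 of 5 thin filament genes did. Over all genes tested, 0.742% passed it as higher and 1.53% as lower. Actn3, the alpha-actinin of fast fibres, had 0.540, 5.13 and 2.27 CPM in the sham libraries and 12, 0.444 and 27.6 CPM in the SNI-NP libraries. Myoz1, which tethers calcineurin at the Z-disc, had a log2 fold change of 2.0 ± 0.85 (SE, edgeR adjusted p = 0.456), and Klhl41, which is needed for sarcomere maintenance, one of 2.45 ± 0.79 (adjusted p = 0.436). Both were highest in SNI-NP 3 and second in SNI-NP 1. Csrp3, muscle LIM protein, differed from these. It had 12, 10 and 0 counts in sham 1, 2 and 3 and 66, 76 and 67 counts in SNI-NP 1, 2 and 3, that is 0.720, 0.563 and 0 CPM against 3.80, 4.22 and 3.88 CPM. All SNI-NP libraries lay at nearly the same level above all sham libraries, and the log2 fold change was 3.19 ± 0.73 (SE, edgeR adjusted p = 0.329, higher in 3 of 3 libraries). The fitted fold depends on the prior count where a library is at 0. Csrp3 was thus the 1 muscle gene of the 59 that was both past the unadjusted criterion and not overlapping between groups.

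None of the 9 calcium handling genes, 8 energy metabolism genes, or 9 membrane and neuromuscular junction genes tested passed the unadjusted criterion (0 of each). Over all genes tested, 0.742% passed it as higher in SNI-NP and 1.53% as lower. Within the energy list, Mb, the oxygen store myoglobin, had 0, 2.65 and 0.0582 CPM in the sham libraries and 3.11, 0.111 and 18.0 CPM in the SNI-NP libraries, close to the order of Ckm. Pygm, muscle glycogen phosphorylase, had 176, 46.9 and 132 CPM against 125, 98.3 and 124 CPM and did not follow that order. Whether the RNA of Pygm came from muscle was not tested. The order SNI-NP 3 then SNI-NP 1 was seen in 3 of 9 calcium genes and 3 of 8 energy genes but in 0 of the 9 membrane and junction genes. The acetylcholine receptor subunit Chrna1 lay between 0.990 and 2.09 CPM in all 6 libraries. The myogenic factors were near the limit of detection, with Myod1 at 6 and 3 counts in SNI-NP 1 and SNI-NP 3 and 0 elsewhere, Myog at 5 counts in SNI-NP 3 and 0 elsewhere, and Myf5 at 0 in every library. The embryonic myosin Myh3 had between 13 and 30 counts in all 6 libraries, and it was the 1 developmental gene with enough counts to be tested. Its highest library was SNI-NP 3 with 30 counts, but sham 1 was next with 24, SNI-NP 1 had 17, and the log2 fold change was 0.07. Myh3 thus did not follow the order of Myh4. The fetal actin Actc1 had 7 counts in SNI-NP 3 and 0 elsewhere.

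The libraries high in fast muscle genes differed in slow fibre genes. Tnni1, slow troponin I, had 0.240, 0.676 and 0.698 CPM in the sham libraries and 0.345, 0 and 6.03 CPM in the SNI-NP libraries. It was high in SNI-NP 3 and at the sham level in SNI-NP 1, although SNI-NP 1 had 42.7 CPM of the fast myosin Myh4. Myl3, the slow essential light chain, had 0.0600, 1.75 and 0.175 CPM against 0.863, 0.333 and 8.52 CPM, with the same contrast between these SNI-NP libraries. Myh7, the slow myosin heavy chain, lay between 10.9 and 14.9 CPM in 5 libraries and at 46.0 CPM in SNI-NP 3. Its estimated counts were not whole numbers and its cardiac paralog Myh6 is a close copy, so its level is uncertain. Myl2, the slow regulatory light chain of the same list, went the other way. It had 0 counts in every library, SNI-NP 3 included, and the reason was not tested.

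Fast isoforms were therefore expressed as a share of each fast and slow pair, with exact 95% binomial intervals. The fast troponin I Tnni2 made up 93.9% (87.3 to 97.7) of its pair in SNI-NP 1 and 73.1% (68.3 to 77.4) in SNI-NP 3. The light chain Myl1 made up 94.4% (91.0 to 96.9) and 73.1% (69.2 to 76.8), and troponin C (Tnnc2) 81.8% (74.5 to 87.8) and 67.4% (61.6 to 72.7). In these 3 pairs the intervals of the libraries did not meet. The intervals did meet for Tnnt3, at 86.3% (82.3 to 89.7) and 81.5% (78.6 to 84.1), and for Actn3, at 81.0% (75.7 to 85.6) and 76.0% (72.4 to 79.2). In SNI-NP 2, where Tnnt3 was lowest, its share was 29.0% (18.7 to 41.2), with 49 counts of the slow Tnnt1 against 20. In the same library Tnnc2 made up 22.4% (13.6 to 33.4), Actn3 38.1% (18.1 to 61.6), Myl1 60.0% (32.3 to 83.7) and Tnni2 100% (63.1 to 100) of their pairs, so the pairs did not share 1 direction there. The sham shares of Tnnt3 were 69.0%, 70.8% and 51.6%. Tnnt1 is also transcribed outside muscle, and its level of 2.72 CPM in SNI-NP 2 was close to the 2.65 and 2.68 CPM of sham 2 and sham 3.

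**Figure D3:**
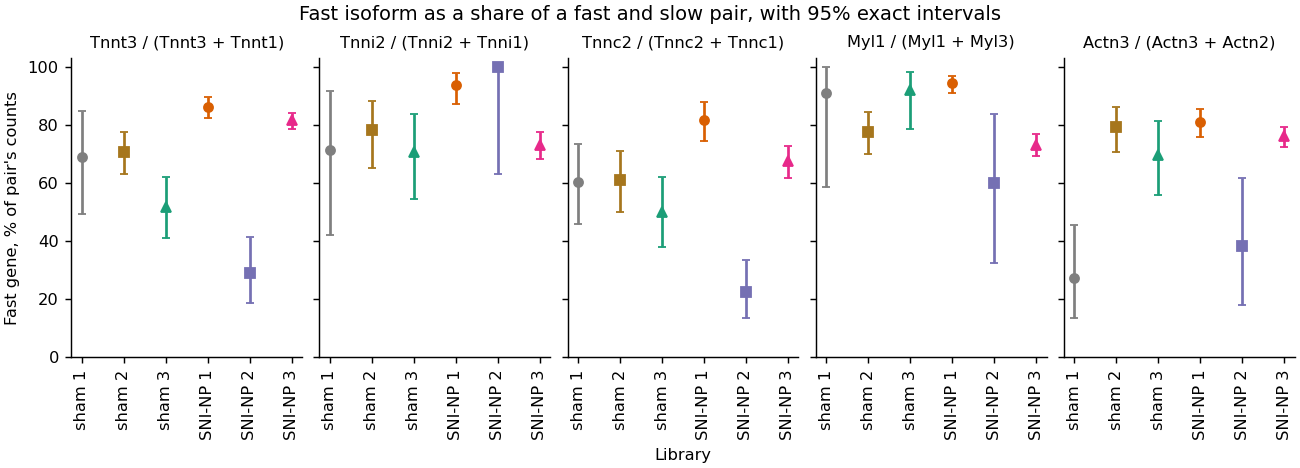
Fast gene as a percent of the counts of a fast and slow pair in each library, with exact 95% binomial intervals, for troponin T, troponin I, troponin C, essential light chain and alpha-actinin. SNI-NP 1 lies above SNI-NP 3 with separate intervals for Tnni2, Tnnc2 and Myl1, and libraries with few counts, such as sham 1 and SNI-NP 2, have wide intervals.

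The highest library stood at least 2 times above the other 5 in 11 of the 59 further muscle genes (18.6%), among them Mybpc1, Tnni2, Actn2, Actn3, Eno3, Mb, Myh7, Myl3, Tnni1 and Tnnt1, and in each of the 11 that library was SNI-NP 3. Of the 64 such genes in the whole table, 26 were highest in SNI-NP 3 and 17 in SNI-NP 1. Without SNI-NP 1 the count of such muscle genes was 21, and without SNI-NP 3 it was 7. Ankrd1 and Csrp3 differed from Acta1 and Tnni1 in which libraries were high. In Ankrd1 and Csrp3 SNI-NP 2 was above all sham libraries, in Acta1 it was level with the lowest of them, and in Tnni1 it had 0 counts.

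**Figure D4:**
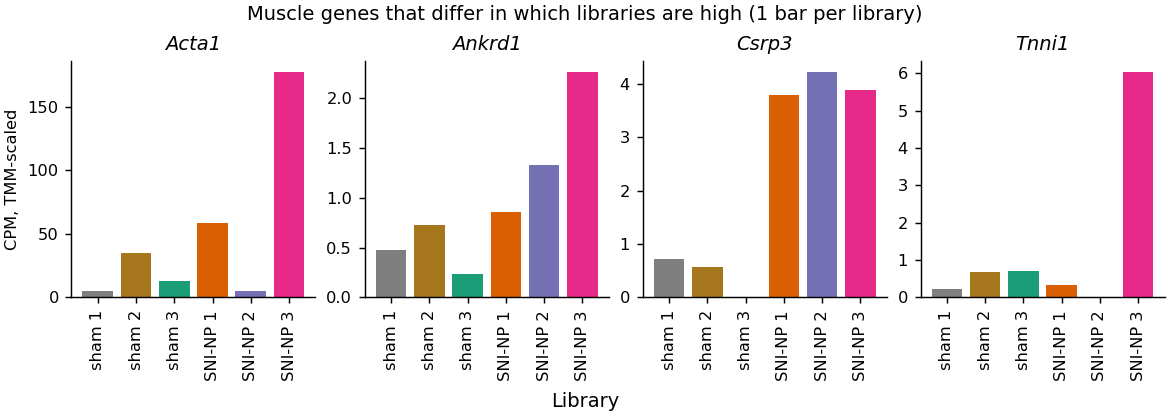
TMM-scaled CPM of Acta1, Ankrd1, Csrp3 and Tnni1 in each library, 1 bar per library on a linear axis from 0, with a separate scale per gene. Acta1 is high in SNI-NP 1 and SNI-NP 3 and intermediate in sham 2, Ankrd1 and Csrp3 are above all sham libraries in every SNI-NP library, and Tnni1 is high only in SNI-NP 3 among the 6.

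Markers of other tissues that surround or supply the cord were summed in the same libraries. The 9 cartilage and tendon genes, led by Col2a1, summed to 409, 372 and 384 CPM in the sham libraries and 570, 355 and 584 CPM in the SNI-NP libraries, with 0 of 7 tested past the unadjusted criterion. The higher sums of SNI-NP 1 and SNI-NP 3 lay mostly in Col2a1 and Thbs4. Thbs4, a matrix protein of tendon and muscle in that list, had 95.4, 100 and 97.5 CPM against 186, 32.2 and 168 CPM. Comp, Chad and Fmod, other matrix genes of the list, were lowest in SNI-NP 1, at 5.18, 2.13 and 42.3 CPM. Comp was highest in SNI-NP 3, at 29.2 CPM, but Chad and Fmod, at 13.2 and 69.4 CPM there, were not. The 10 smooth muscle genes summed to between 462 and 504 CPM in sham and to 654, 504 and 594 CPM in SNI-NP, also with SNI-NP 1 and SNI-NP 3 on top, and 0 of 10 passed. The share over all genes tested was 0.742% higher and 1.53% lower. None of the listed genes of cartilage, tendon or smooth muscle was at 0 in every library. Their part in the levels of the muscle genes was not tested.

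Blood-forming cell markers were summed in the same way. The 6 erythroid genes summed to 499, 326 and 693 CPM in the sham libraries and 1540, 802 and 688 CPM in the SNI-NP libraries. Of these, 4 of 6 were past the unadjusted criterion and higher in SNI-NP, against 0.742% of all genes tested. The erythroid sum was highest in SNI-NP 1 and next in SNI-NP 2. The 10 granulocyte precursor genes summed to 41.4, 66.2 and 138 CPM against 206, 106 and 152 CPM. Of the 9 tested, 3 were past the criterion and higher (0.742% of all genes), namely Mpo, Prtn3 and Ctsg. This sum was highest in SNI-NP 1 and next in SNI-NP 3. The 7 B cell genes summed to 5.48, 7.63 and 9.45 CPM against 17.8, 14.1 and 13.4 CPM. Of the 5 tested, 3 were past the criterion and higher (0.742% of all genes). Each of these sums was highest in SNI-NP 1, and their part in the levels of the 10 muscle genes was not tested. The bone genes summed to between 137 and 184 CPM over both groups, most of it from Alpl and Ctsk, which are also transcribed in other tissues. The osteoblast gene Bglap had 1.98, 0.338 and 0.815 CPM in the sham libraries and 5.12, 0.722 and 2.67 CPM in the SNI-NP libraries, highest in SNI-NP 1 and next in SNI-NP 3. In the same list, Ibsp and Sp7 differed from Bglap and were highest in sham 1, at 3.54 and 1.74 CPM. Dmp1 was highest in SNI-NP 1, as Bglap was, at 1.21 CPM, but sham 1 was next at 0.54 CPM. The cardiac genes summed to between 10.5 and 16.2 CPM, with SNI-NP 3 at 12.1 CPM, and most of that sum was Nppa and Tnnt2. The cardiac myosin Myh6 was highest in SNI-NP 3, at 2.45 CPM against 0.559 to 1.59 CPM elsewhere.

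**Figure D5:**
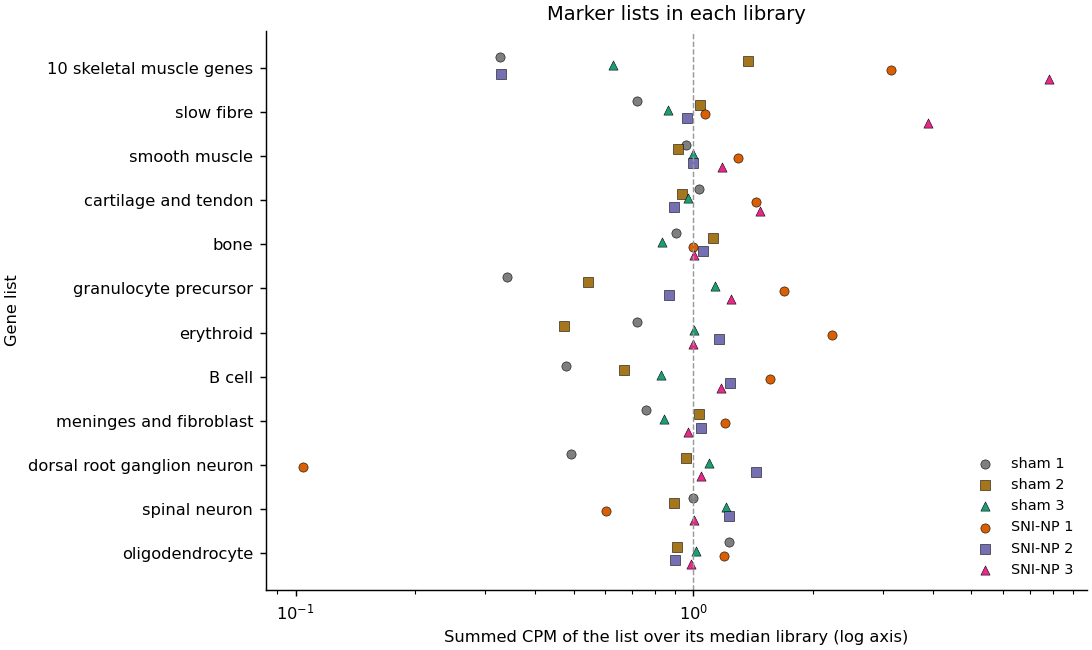
Summed CPM of the 10 genes and of marker lists in each library, divided by the list's median over the 6 libraries (log axis, dashed line at the median). The 10 muscle genes span a 24.1-fold range with SNI-NP 3 and SNI-NP 1 on the right, slow fibre genes are high in SNI-NP 3, and sensory ganglion genes are low in SNI-NP 1.

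Genes whose symbols were outside all lists were ranked by how like their profile was to the mean of the 10 over the 6 libraries. The ranking covered 13675 genes and used the Pearson correlation of log2 levels. The closest were Chd4, a chromatin remodeller (0.991), Lgi4, a secreted Schwann cell protein (0.990), Rftn1 (0.989), Tob2 (0.988), Mcm9 (0.988), Ranbp17 (0.984), Erbb2, a neuregulin receptor subunit (0.980), AABR07005775.1, Mmp28 and Wdfy2 (0.977 each). The measure ignores the size of change, and 9 of these differed little between libraries, for example Chd4 by 1.16-fold between its highest and lowest library. The remaining one, AABR07005775.1, had 1, 19 and 6 counts in the sham libraries and 27, 1 and 97 counts in the SNI-NP libraries. Its description, a fast-twitch calcium-transporting ATPase, is a name of Atp2a1, a gene of the calcium list. It may therefore be a listed muscle gene under another symbol, and it is outside the lists by symbol only. Of the 10 nearest, AABR07005775.1 alone had a range as wide as that of Acta1, Myh4 and Ckm. Its order was SNI-NP 3 first, then SNI-NP 1 and then sham 2.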

How the data were processed

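RNA of tissue labelled spinal cord was sequenced as 3 sham and 3 SNI-NP libraries. The authors mapped reads to the Rat6 genome and kept unique ones, and the submitters' processing notes name FastQC, STAR and HTSeq; versions and the annotation release are not given in the sources used here. The deposited table gives estimated counts, some of them not whole, and the authors' FPKM per gene. The table holds no comparison columns, and every sample column was mapped.

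Counts were rounded and fitted with edgeR 4.0.16 in R 4.3.3 (filterByExpr, TMM, quasi-likelihood test, group as the only term, Benjamini-Hochberg adjustment over 14426 genes). A gene was called at a fold change above 2 and p under 0.05. CPM used TMM-scaled library sizes, with 0.5 CPM added before logs and 2-fold rules. Intervals at 95% are exact. Counts of 16670760 to 18151156 per library set the precision. The edgeR fit was tested on simulated data. Alternatives were DESeq2 1.42.0, other filters and scalings, FPKM, a pseudocount of 0.1 CPM, a replicate block and leaving out each library. Promoters came from RefSeq (GRCr8).

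The 10 genes and all lists were chosen with earlier results of these data known. Genes are named if they belong to the 10 or to a list. The other genes named are the 10 that correlate best with the mean profile of the 10. Their symbols are outside the lists, and their mean is at least 1 CPM. All pairs of libraries of a group differed beyond sampling noise.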

Additional observations from a re-analysis of the deposited data

How the results depend on the processing

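The direction of the 10 genes, with SNI-NP 3 highest and SNI-NP 1 second in 9, was the same with CPM from the library total and with FPKM, both chosen after seeing the data, and among the further muscle genes that order held in 22 to 24 of 59. With DESeq2, 99 genes passed an adjusted p under 0.05 with a fold change above 2, against 0 with edgeR. Leaving out each library in turn gave 0 to 206 such genes (2 without sham 2, 206 without SNI-NP 1) and, at an unadjusted p, 258 to 804 (804 without SNI-NP 1) against 327. Of the muscle genes outside the 10, 5 passed at an unadjusted p, with 8 when no filter was used, 3 when at least 10 counts were required in every library and 11 with DESeq2; leaving out each library gave 1 to 25 (25 without SNI-NP 2, 2 without sham 3, 1 without SNI-NP 3). The number of the 10 with 1 library at least 2 times above the rest was 5, and 5 to 8 with each library left out (8 without SNI-NP 1); for the further muscle genes it was 11, and 7 to 21 (21 without SNI-NP 1, 7 without SNI-NP 3). The cause of these shifts was not tested. Replicate numbers only name the libraries: same-numbered libraries had correlated deviations of 0.239, -0.152 and 0.0599, and with the replicate block 423 genes passed at an unadjusted p, 4 of them muscle genes outside the 10. Counts of 3 to 71 limit Ankrd1, Ankrd23 and Myom1.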
